A study of Mus musculus with 29 samples.

Results

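The onset of septation was followed in 8 laser-captured libraries of the mouse lung, 4 from pups of P1.5 and P2.5 and 4 from pups of P4 and P5, out of 29 libraries that run from E16.5 to P28. The 8 were chosen by their labelled ages, with earlier results of these data known. Each library holds RNA of the alveolar septa of 1 wild type C57BL/6 pup, captured from frozen lung sections while large vessels and bronchi were avoided, depleted of ribosomal RNA and sequenced with its strand kept. The labels name no treatment. The P1.5-P2.5 group was made of P1.5 pups e and d and P2.5 pups h and i, which weighed 1.6, 2, 1.6 and 1.7 g. The P4-P5 group was made of P4 pups a and e and P5 pups b and e, which weighed 2.7, 2.6, 3.7 and 2.4 g. Values of single libraries are given below in these orders. The weights of the groups did not overlap, so age and body weight cannot be told apart.

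In the newborn mouse the gas exchange region consists of wide saccules with thick walls. During septation, low ridges rise from those walls and divide the saccules into alveoli. Myofibroblasts that carry the PDGF receptor alpha lie at the tips of the ridges and lay down elastin, while the epithelium, the capillaries and the mesenchyme of the wall grow with them. The comparison asks which genes of the septal wall differ between the last days of the saccule and the first days of septation.

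The deposited unit is FPKM, a fragment count divided by the transcript's length and by the mapped total of its library, so levels can be set against each other between genes. Changes are differences of mean log2(FPKM + 1), P4-P5 minus P1.5-P2.5, which understates the change of genes at low FPKM. A gene was called at an adjusted p under 0.05 in limma. Of 22779 gene IDs, 13000 reached an FPKM of 1 in at least 4 of the 8 libraries and were tested. The depth of the libraries is unknown. Their FPKM summed to between 318176 and 409862, with 12403 to 13059 genes at an FPKM of 1 or more. The labelled sex went against Xist and 4 Y-linked genes in 5 of the 8 libraries, and by these genes each group held 2 females and 2 males. P1.5 pup d and P2.5 pup h had opposite mismatches, as had P4 pups a and e, and the mismatch of P5 pup e had no counterpart in its group. Whether the sex entries or the libraries were misplaced was not tested. Ages and pup names are those of the labels, and if libraries were misplaced, values given here for a pup or an age would belong to another.

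The septal label was checked against marker genes. Genes of alveolar type 2 cells summed to 10700 to 26600 FPKM at P1.5-P2.5 and 11800 to 16600 FPKM at P4-P5, and genes of alveolar type 1 cells to 3020 to 4140 FPKM at P1.5-P2.5 and 2130 to 2430 FPKM at P4-P5. Cartilage genes reached 21.6 FPKM in sum at most. Club cell genes of the conducting airways summed to 925 to 5780 FPKM at P1.5-P2.5 and 1180 to 6340 FPKM at P4-P5, so some airway was present at both ages. Heart muscle genes summed to 832 FPKM in P5 pup b and to at most 188 FPKM in the other 7 libraries. Haemoglobin genes were not analysed here.

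At the step from P1.5-P2.5 to P4-P5, 7 genes rose and 4 fell when the spread between animals was estimated over all 29 libraries, which is 0.0538% and 0.0308% of the 13000 genes tested. When the spread was estimated over the 8 libraries alone, 155 genes were called higher (1.19%) and 51 lower (0.392%), and all 11 genes of the larger fit were among them. At an unadjusted p under 0.05 there were 1294 genes in the larger fit and 1868 in the smaller. All 4 libraries of P4-P5 lay above all 4 of P1.5-P2.5 for 735 genes (5.65%) and below them for 482 (3.71%), a split that became 626 and 631 after quantile normalization. The size of each change is the same in both fits and its standard error is not, with a median over all genes of 0.38 for 29 libraries and of 0.30 for the 8. Below, rose and fell are used of the 11 genes called with 29 libraries, and calls of the fit of the 8 libraries are named as such. With 1 of the 8 libraries left out, whichever it was, 0 to 3 genes were called higher and 0 or 1 lower in the larger fit, with 955 to 1253 genes at an unadjusted p under 0.05. In the fit of the 8 libraries the same gave 25 (without P4 pup a) to 123 genes higher and 5 (without P1.5 pup e) to 49 lower. Outside the cell division genes and the lung transcription factors, each list described below had 0 members called in a given direction in at least 1 of these fits. In the fit of the 8 libraries the transcription factor list kept 1 to 2 members called higher, whichever library was left out. The median change of all genes was 0.03. On GRCm38.p6, by RefSeq, the genes that rose lie at chr11:72028717-72042460 (Aipl1), chr4:52439221-52488365 (Smc2), chr1:72824480-72852474 (Igfbp2), chr1:164796663-164824274 (Dpt), chr1:151571373-151721432 (Niban1) and chr5:75151322-75198206 (Pdgfra), besides 1700092M07Rik. The genes that fell lie at chr6:125314271-125344943 (Scnn1a), chr6:58933536-59024502 (Fam13a), chr2:34941750-34961812 (Traf1) and chr19:5824708-5845480 (Neat1).

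**Figure D1:**
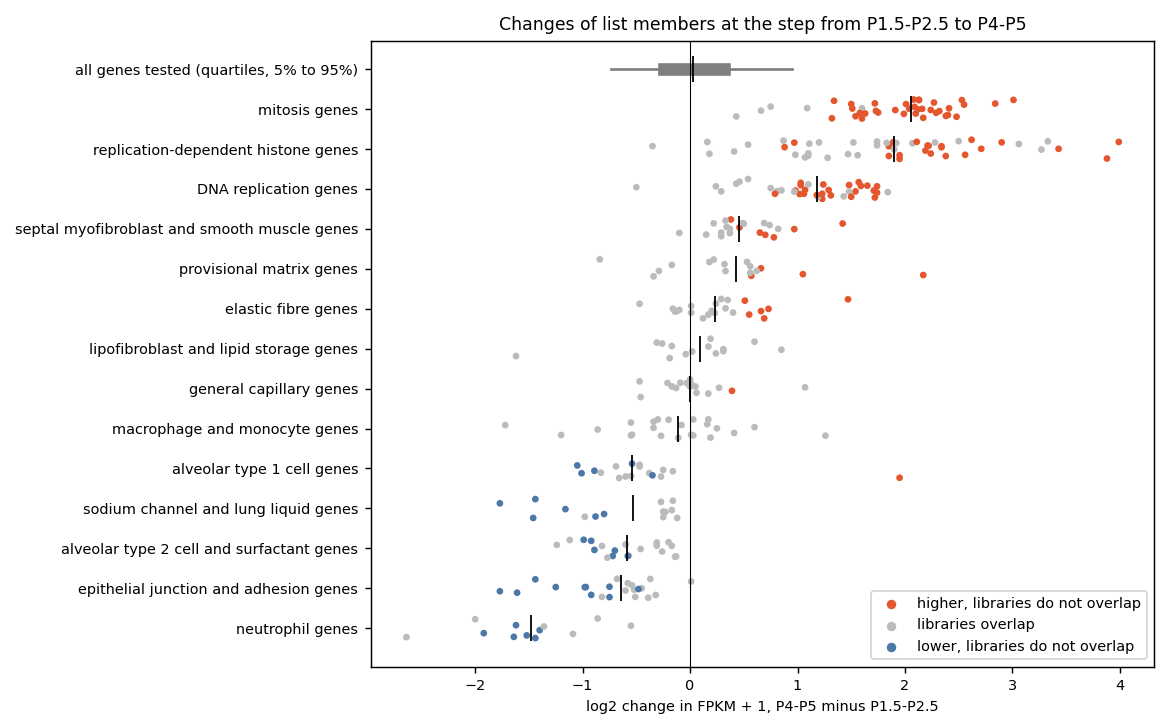
Log2 change of every tested member (points) of the gene lists (rows), with all genes tested as a box of quartiles and whiskers from 5% to 95%. Orange points are higher and blue points lower at P4-P5 with no overlap between the 4 and 4 libraries, and grey points overlap. The mitosis, histone and replication lists lie to the right, with medians of 2.06, 1.90 and 1.18, and the neutrophil list to the left, with a median of -1.48.

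Genes of cell division were higher at P4-P5. Of 40 genes of mitosis, which build the spindle, attach chromosomes to it and divide the cell, all 40 had a higher mean log2 level at P4-P5, and in 35 of them the libraries did not overlap, beside 5.65% of all genes. Their median change was 2.06, and the range ran from 0.43 to 3.01. None was called with 29 libraries, where 36 had an unadjusted p under 0.05, and 28 were called higher in the fit of the 8 libraries. With 1 of the 8 left out, between 9 and 27 were called there. The 5 mitosis genes whose libraries overlapped were Ccnb2, Aurkb, Ttk, Cenpa and Ube2c.

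**Figure D2:**
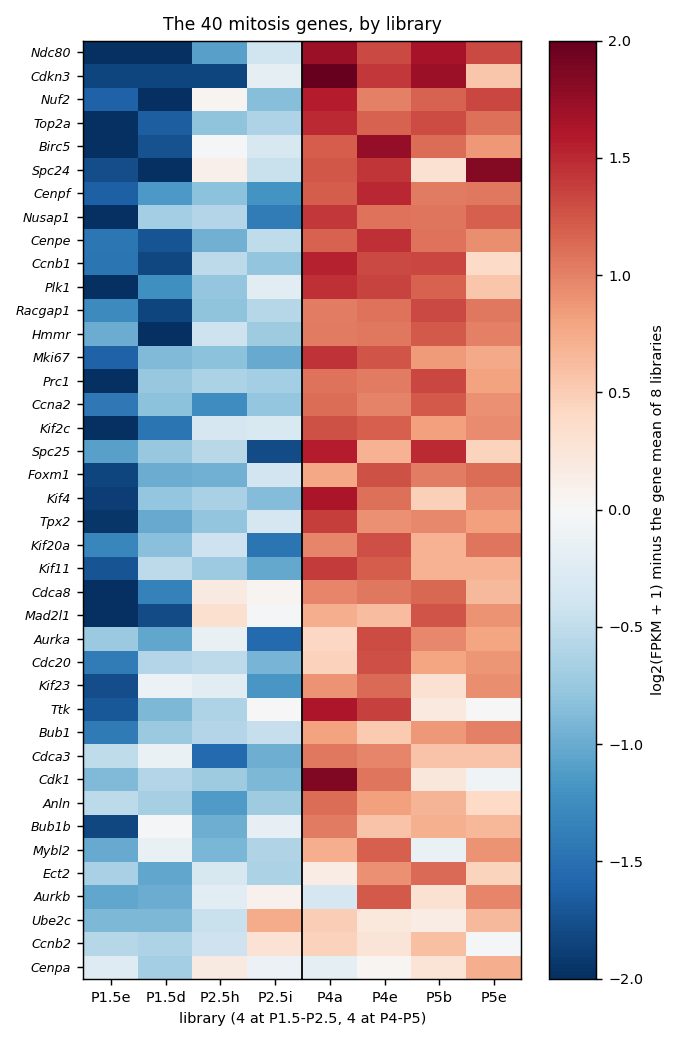
Levels of the 40 mitosis genes (rows) in the 8 libraries (columns), as log2(FPKM + 1) minus the mean of that gene over the 8 libraries, from blue for low to red for high, with values beyond -2 or 2 drawn in the end colours. The 4 columns on the right, at P4-P5, lie above those on the left without overlap for 35 of the 40 genes.

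Mki67, which coats mitotic chromosomes and marks cycling cells, stood at 40.8, 68.5, 71.2 and 62.9 FPKM at P1.5-P2.5 and 347, 304, 231 and 216 FPKM at P4-P5. The lowest later library was above the highest earlier one by more than the whole range of the earlier group. The mean went from 60.9 ± 13.8 to 274 ± 61.7 FPKM (SD, n = 4 and 4), a change of 2.16 ± 0.59 (SE, adjusted p of 0.123 over 29 libraries and 0.00393 over the 8). Top2a, the topoisomerase that disentangles sister chromosomes, stood at 6.49, 8.58, 16.1 and 18.6 FPKM at P1.5-P2.5 and 83, 66.6, 72.8 and 63.4 FPKM at P4-P5, and both P2.5 libraries were above both P1.5 libraries. Its change was 2.53 ± 0.59 (SE, adjusted p of 0.0734 over 29 libraries and 0.00625 over the 8).

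Cenpf, a kinetochore protein, stood at 5.83, 8.56, 11.1 and 8.27 FPKM at P1.5-P2.5 and 48.2, 59.2, 42.5 and 43.1 FPKM at P4-P5, a change of 2.40 ± 0.51 (SE, adjusted p of 0.0651 over 29 libraries and 0.0024 over the 8). Nusap1, which bundles spindle microtubules, stood at 2.11, 7.36, 7.84 and 4.06 FPKM at P1.5-P2.5 and 34.5, 27.3, 27 and 29.4 FPKM at P4-P5, a change of 2.38 ± 0.52 (SE, adjusted p of 0.0676 over 29 libraries and 0.0102 over the 8). Kif20a, a motor of the dividing cell's midzone, stood at 1, 1.78, 2.73 and 0.798 FPKM at P1.5-P2.5 and 8.8, 11.1, 7.03 and 9.37 FPKM at P4-P5, a change of 2.01 ± 0.47 (SE, adjusted p of 0.0734 over 29 libraries and 0.0149 over the 8). None of the 3 had an overlap between the groups, and the smallest gap was that of Kif20a. Kif20a passed the filter on low values only with the help of the P4-P5 libraries. Foxm1, the transcription factor that drives many mitotic genes, stood at 1.38, 3.28, 3.36 and 5.5 FPKM at P1.5-P2.5 and 13.6, 19.5, 16.2 and 17.4 FPKM at P4-P5, with a mean 4.94 times as high at P4-P5 and a change of 2.09 ± 0.51 (SE, adjusted p of 0.0891 over 29 libraries and 0.0145 over the 8).

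A gene of chromosome condensation was called with all 29 libraries. Smc2, a core subunit of the condensin rings that compact chromosomes, stood at 2.83, 2.21, 7.03 and 7.64 FPKM at P1.5-P2.5 and 31, 27.1, 18.9 and 21.2 FPKM at P4-P5. It rose by 2.22 ± 0.45 (SE, adjusted p of 0.0463 over 29 libraries and 0.0145 over the 8), with both P2.5 libraries above both P1.5 libraries and every later library above them all.

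Genes of DNA replication were also higher at P4-P5, by less. Of 38 tested, 37 had a higher mean log2 level at P4-P5, 23 did so without overlap (60.5%, beside 5.65% of all genes), and the median change was 1.18. None was called with 29 libraries, where 26 had an unadjusted p under 0.05, and 9 were called higher with the 8, a count of 0 to 7 with 1 of these left out. Mcm4, a subunit of the helicase that opens DNA, stood at 9.56, 14.6, 14.5 and 14.4 FPKM at P1.5-P2.5 and 51.5, 24.3, 35.5 and 29.3 FPKM at P4-P5, a change of 1.31 ± 0.32 (SE, adjusted p of 0.0891 over 29 libraries and 0.0281 over the 8). Rrm1, a subunit of the enzyme that makes deoxynucleotides, stood at 4.73, 8.93, 11.6 and 10.5 FPKM at P1.5-P2.5 and 34.2, 21.4, 24.7 and 23.5 FPKM at P4-P5, a change of 1.48 ± 0.36 (SE, adjusted p of 0.0891 over 29 libraries and 0.0268 over the 8). P4 pup a was the highest library for both. Mcm6 and Pola1, the catalytic subunit of the priming polymerase, changed by 1.23 and 1.18 and were called higher in the fit of the 8 libraries.

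Histone genes that are switched on while DNA is copied were listed by symbol after their values were seen. Of 49 tested, 48 had a higher mean log2 level at P4-P5, 22 did so without overlap (44.9%, beside 5.65% of all genes), and the median change was 1.90. None was called with 29 libraries, where 31 had an unadjusted p under 0.05, and 17 were called higher with the 8, or 5 to 19 with 1 left out. H2ac10, a histone H2A gene, stood at 53.6, 87.5, 201 and 141 FPKM at P1.5-P2.5 and 1160, 800, 703 and 385 FPKM at P4-P5, a change of 2.71 ± 0.80 (SE, adjusted p of 0.154 over 29 libraries and 0.0145 over the 8). Copies of a histone are nearly identical in sequence, so reads can be shared between them and the value of a single copy is uncertain. Together the 3 lists held 54 of the 155 genes called higher in the fit of the 8 libraries.

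Promoters of 4 of these genes are shown because most members of the 3 lists were higher together and because short motifs were searched in their promoters. Each is the 200 bases before the start of transcription, on the strand of the gene, from RefSeq on GRCm38.p6. Top2a lies at chr11:99024190-99024389 on the minus strand, Cenpf at chr1:189688087-189688286 on the minus strand, Mki67 at chr7:135716380-135716579 on the minus strand and H2ac10 at chr13:23533675-23533874 on the plus strand. Capitals mark the motif CCAAT, written ATTGG where it lies on the other strand.
Top2a: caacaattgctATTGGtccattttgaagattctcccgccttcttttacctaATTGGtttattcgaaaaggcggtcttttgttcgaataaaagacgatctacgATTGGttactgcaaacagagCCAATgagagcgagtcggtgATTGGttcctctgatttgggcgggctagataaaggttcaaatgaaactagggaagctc
Cenpf: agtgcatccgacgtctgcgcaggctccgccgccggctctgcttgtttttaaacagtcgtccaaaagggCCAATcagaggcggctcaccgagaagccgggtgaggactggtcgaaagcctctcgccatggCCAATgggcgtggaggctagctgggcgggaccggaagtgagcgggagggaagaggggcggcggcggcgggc
Mki67: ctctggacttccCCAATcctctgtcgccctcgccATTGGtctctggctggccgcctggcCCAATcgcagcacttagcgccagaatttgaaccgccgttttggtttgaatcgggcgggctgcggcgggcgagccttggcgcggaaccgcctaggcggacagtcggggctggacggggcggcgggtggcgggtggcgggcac
H2ac10: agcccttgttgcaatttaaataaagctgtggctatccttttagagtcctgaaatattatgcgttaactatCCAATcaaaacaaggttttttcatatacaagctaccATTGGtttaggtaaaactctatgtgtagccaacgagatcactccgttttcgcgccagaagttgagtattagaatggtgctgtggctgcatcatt
The motif CCAAT is bound by the factor NF-Y in many promoters. It was found 5 times in the Top2a stretch, 2 times in that of Cenpf, 3 times in that of Mki67 and 2 times in that of H2ac10. It was also counted on both strands over the 250 bases before any listed start. There it was present in 39.7% of the 10322 tested genes whose promoters were searched, in 76.5% of 34 mitosis genes, in 62.5% of 32 replication genes and in 88.6% of 44 histone genes. Any stretch shared by neighbouring genes was counted for each gene, so the promoters of a set need not be separate sequences. The motif TTTGAA, with TTCAAA on the other strand, is the core of the cell cycle homology region and was present in 13%, 32.4%, 12.5% and 45.5% of the same sets. The motif TATAAA, the core of the TATA box, searched on the strand of the gene only, was present in 4.8%, 2.94%, 0% and 43.2%. The 3 motifs were counted apart, so their matches may overlap, and a match of letters says nothing of what is bound in the lung.

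Across the series, the mean of log2(FPKM + 1) over the mitosis genes was 4.95 to 5.1 at E16.5, 1.67 to 2.6 at P1.5-P2.5, 3.99 to 4.26 at P4-P5, 2.43 to 3.39 at P7-P10 and 1.12 to 2.3 at P19-P28. The P4-P5 libraries lay above all those of P1.5-P2.5 and P7-P10 and below those of E16.5. At P0.5-P1, 3 libraries stood at 1.72, 1.9 and 1.56 and P0.5 pup f at 3.95. The median standard error of the mitosis genes was 0.59 with 29 libraries, 0.51 without P0.5 pup f and 0.34 with the 8 libraries alone. Without P0.5 pup f, 15 mitosis genes, 4 replication genes and 0 histone genes were called higher, among 64 genes higher and 27 lower in all.

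**Figure D3:**
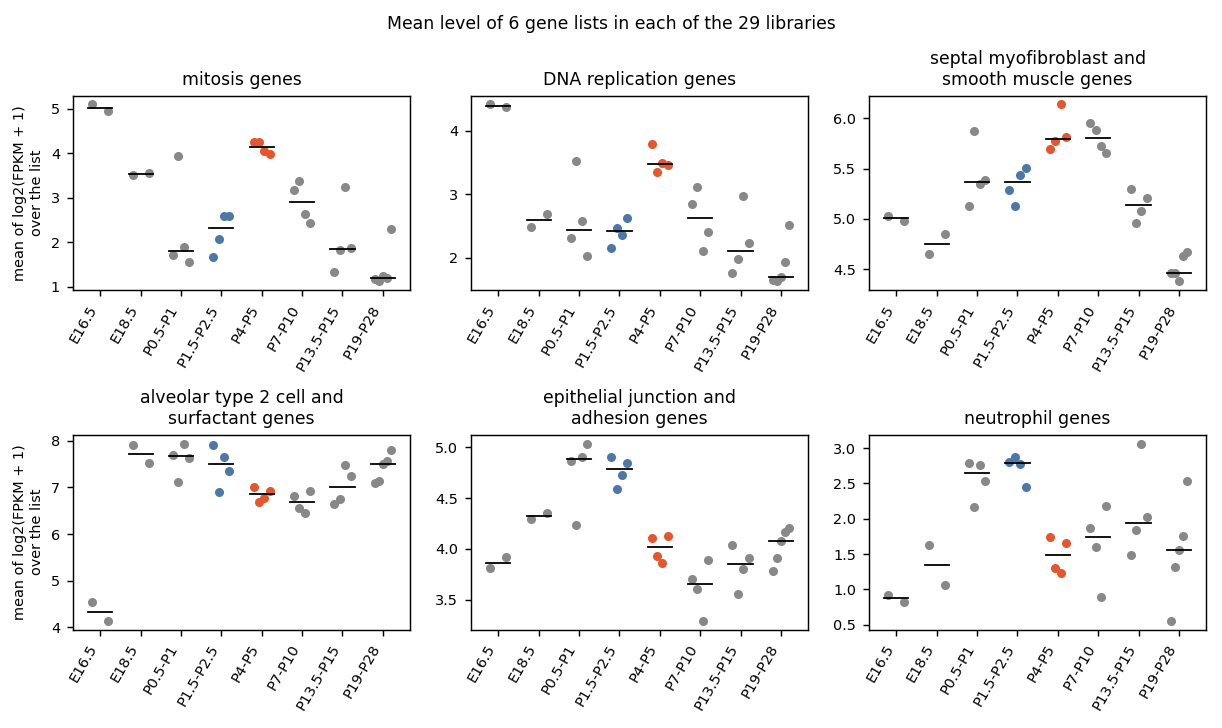
Mean of log2(FPKM + 1) over the genes of 6 lists (panels) in each of the 29 libraries (points), by group of ages. The 4 P4-P5 libraries lie at 3.99 to 4.26 for mitosis genes, above the 1.67 to 2.6 of P1.5-P2.5, and at 1.24 to 1.74 for neutrophil genes, below 2.45 to 2.87.

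Markers of red cell precursors, which divide as well, had a higher sum at P4-P5. The 17 listed genes with a value summed to 78.9 to 109 FPKM at P1.5-P2.5 and 155 to 272 FPKM at P4-P5, and without Car2, which other cells also express, to between 45.8 and 67.2 FPKM and then to between 76.9 and 183 FPKM. Of 10 tested, 2 were higher without overlap (20%, beside 5.65% of all genes) and none was called in either fit. Their part in the cell division genes was not tested. In septa captured whole, more cells of a kind and more RNA per cell cannot be told apart, which holds for every result here.

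Genes that gate entry into the cell cycle were mixed. Of 17 genes of D cyclins, their inhibitors and the Rb family, 4 were higher and 1 lower without overlap. These are 23.5% and 5.88%, beside 5.65% and 3.71% of all genes, and none was called in either fit. Cdkn2c, an inhibitor of CDK4 and CDK6, stood at 1.57, 2.89, 1.77 and 5.96 FPKM at P1.5-P2.5 and 8.37, 11, 7.37 and 9.04 FPKM at P4-P5, and its change was 1.40 ± 0.51 (SE, adjusted p of 0.293 over 29 libraries and 0.0768 over the 8). E2f3, which switches on replication genes, changed by 0.79 ± 0.34 (SE, adjusted p of 0.417 over 29 libraries and 0.176 over the 8).

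In the mesenchyme, Pdgfra and the matrix gene Dpt rose. Pdgfra, the receptor that marks septal myofibroblasts and their precursors, stood at 26.7, 17.2, 19.7 and 26 FPKM at P1.5-P2.5 and 46.3, 44.5, 40.8 and 45.7 FPKM at P4-P5. The later libraries lay close together and well above the earlier ones. At other ages Pdgfra stood at 88.5 and 70.9 FPKM at E18.5, 20.7 to 38.6 FPKM at P0.5-P1 and 92.7 to 120 FPKM at P19-P28. The mean log2 level of the myofibroblast and smooth muscle list described below was 4.38 to 4.67 at P19-P28, under the 5.7 to 6.14 of P4-P5. Pdgfra thus did not follow that list at the late ages. Pdgfra rose 1.98-fold in mean FPKM, a log2 change of 0.97 ± 0.18 (SE, adjusted p of 0.0313 over 29 libraries and 0.0268 over the 8). Its ligand Pdgfa, made by the epithelium, stood at 61.3, 48.5, 55.8 and 60.6 FPKM at P1.5-P2.5 and 35.6, 33.3, 32.3 and 56.3 FPKM at P4-P5, with an overlap and a change of -0.54 ± 0.39 (SE, adjusted p of 0.741 over 29 libraries and 0.228 over the 8). The related receptor Pdgfrb of pericytes changed by 0.13 ± 0.21 (SE, adjusted p of 0.935 over 29 libraries and 0.741 over the 8).

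Dpt, dermatopontin, a small protein that organises collagen fibrils, stood at 60.7, 38.5, 52.3 and 59 FPKM at P1.5-P2.5 and 158, 107, 159 and 128 FPKM at P4-P5. It rose 2.62-fold, a log2 change of 1.38 ± 0.24 (SE, adjusted p of 0.0313 over 29 libraries and 0.0139 over the 8). Niban1, a stress-responsive regulator of translation, stood at 10.2, 10.5, 15.1 and 13.6 FPKM at P1.5-P2.5 and 34.3, 21.2, 31.6 and 32.7 FPKM at P4-P5 and rose by 1.21 ± 0.23 (SE, adjusted p of 0.0313 over 29 libraries and 0.0227 over the 8). For both genes every later library was above every earlier one.

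The list of 21 genes of septal myofibroblasts and smooth muscle holds mainly contractile genes, and also Pdgfra, Egfem1, Tgfbi, Aspn, Hhip and Enpp2. Of the 21, 20 had a higher mean log2 level at P4-P5, 7 did so without overlap (33.3%, beside 5.65% of all genes), and the median change was 0.46. Pdgfra was the member that rose, and Cald1 and Egfem1 were also called higher in the fit of the 8 libraries, where 0 to 3 members were called with 1 left out. Of these 3 members only Cald1 codes for a contractile protein. Cald1, caldesmon of the actin filament, stood at 96.4, 119, 125 and 109 FPKM at P1.5-P2.5 and 184, 196, 191 and 203 FPKM at P4-P5, a change of 0.78 ± 0.18 (SE, adjusted p of 0.0734 over 29 libraries and 0.0286 over the 8). Egfem1 stood at 14.8, 11.3, 25.5 and 23.4 FPKM at P1.5-P2.5 and 48.8, 60.5, 54.8 and 36.8 FPKM at P4-P5, a change of 1.42 ± 0.39 (SE, adjusted p of 0.123 over 29 libraries and 0.0271 over the 8). Acta2, the smooth muscle actin, stood at 131, 77.5, 150 and 148 FPKM at P1.5-P2.5 and 210, 189, 243 and 164 FPKM at P4-P5, without overlap, and changed by 0.70 ± 0.30 (SE, adjusted p of 0.421 over 29 libraries and 0.19 over the 8). Myh11, smooth muscle myosin, changed by 0.65 ± 0.25 (SE, adjusted p of 0.316 over 29 libraries and 0.0693 over the 8), and Tagln by 0.29 ± 0.28 (SE, adjusted p of 0.845 over 29 libraries and 0.724 over the 8).

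Elastic fibre genes showed smaller differences. Of 22 tested, 6 were higher without overlap (27.3%, beside 5.65% of all genes), and Mfap5 was called higher in the fit of the 8 libraries. Eln, elastin itself, stood at 364, 223, 234 and 240 FPKM at P1.5-P2.5 and 198, 260, 634 and 349 FPKM at P4-P5. P4 pup a was below all 4 earlier libraries and P5 pup b far above every other library, and the change was 0.33 ± 0.39 (SE, adjusted p of 0.895 over 29 libraries and 0.727 over the 8). Without P5 pup b, the library with the high heart muscle sum, it was 0.01 (adjusted p of 0.999). Mfap5, a microfibril protein, stood at 5.78, 5.49, 7.88 and 5.51 FPKM at P1.5-P2.5 and 13.8, 19.1, 25.4 and 18.2 FPKM at P4-P5, a change of 1.47 ± 0.50 (SE, adjusted p of 0.235 over 29 libraries and 0.0149 over the 8) and of 1.33 without P5 pup b. Mfap4, which helps elastin assemble, stood at 635, 489, 391 and 631 FPKM at P1.5-P2.5 and 952, 812, 1080 and 693 FPKM at P4-P5, a change of 0.73 ± 0.22 (SE, adjusted p of 0.155 over 29 libraries and 0.21 over the 8).

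Collagens split. Of 17 fibrillar and associated collagen genes, 2 were higher and 4 lower without overlap (11.8% and 23.5%, beside 5.65% and 3.71% of all genes). None was called in either fit. Col3a1 stood at 189, 152, 176 and 188 FPKM at P1.5-P2.5 and 306, 288, 500 and 242 FPKM at P4-P5, a change of 0.87 ± 0.20 (SE, adjusted p of 0.0734 over 29 libraries and 0.0912 over the 8), and of 0.66 without P5 pup b. Col1a2 changed by 0.70 ± 0.20 (SE, adjusted p of 0.129 over 29 libraries and 0.137 over the 8), while Col13a1 and Col6a1 changed by -0.61 and -0.52. Among 16 genes of the provisional matrix, 4 were higher without overlap (25%, beside 5.65% of all genes). Hmmr, a hyaluronan receptor that also acts on the spindle, was called higher in the fit of the 8 libraries. It passed the filter on low values only with the help of the P4-P5 libraries. Tnc, tenascin C, stood at 104, 120, 124 and 124 FPKM at P1.5-P2.5 and 217, 189, 208 and 143 FPKM at P4-P5, a change of 0.66 ± 0.27 (SE, adjusted p of 0.377 over 29 libraries and 0.0909 over the 8). Of 23 proteases and inhibitors, 3 were higher and 2 lower without overlap (13% and 8.7%, beside 5.65% and 3.71% of all genes). Only Adam12 was called, higher in the fit of the 8 libraries. Adam12 stood at 12.5, 19.1, 16 and 19.6 FPKM at P1.5-P2.5 and 44.6, 29.7, 40.6 and 33.5 FPKM at P4-P5, a change of 1.10 ± 0.35 (SE, adjusted p of 0.201 over 29 libraries and 0.0268 over the 8).

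The insulin-like growth factors differed in opposite directions. Igf1, made by the mesenchyme, stood at 22, 23.2, 28.9 and 27.3 FPKM at P1.5-P2.5 and 50.6, 36.3, 43.1 and 48.6 FPKM at P4-P5, a change of 0.79 ± 0.41 (SE, adjusted p of 0.536 over 29 libraries and 0.0474 over the 8). Igf2, the imprinted fetal growth factor, stood at 57.9, 68.7, 60.9 and 63.6 FPKM at P1.5-P2.5 and 20.6, 35.6, 31.8 and 30.7 FPKM at P4-P5, a change of -1.08 ± 0.38 (SE, adjusted p of 0.259 over 29 libraries and 0.0202 over the 8). Neither was called with 29 libraries and neither overlapped between the groups. Igf1 stood at 29, 42.6, 46.7 and 26.2 FPKM at P0.5-P1 and 34 to 35.6 FPKM at P7-P10 (adjusted p of 0.999 in limma over 29 libraries). Between the same ages Igf2 changed by -2.49 (adjusted p of 0.00214). Igfbp2, a binding protein of both and a marker of mature alveolar type 1 cells, stood at 3.12, 8.22, 6.36 and 5.19 FPKM at P1.5-P2.5 and 29.9, 19.1, 32.2 and 17.6 FPKM at P4-P5 and rose 4.32-fold, a log2 change of 1.95 ± 0.38 (SE, adjusted p of 0.0357 over 29 libraries and 0.0145 over the 8). The receptor Igf1r stood at 47.3, 51.5, 43.8 and 47.2 FPKM at P1.5-P2.5 and 35.3, 34.3, 36.8 and 35.8 FPKM at P4-P5, a change of -0.41 ± 0.14 (SE, adjusted p of 0.272 over 29 libraries and 0.2 over the 8).

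**Figure D4:**
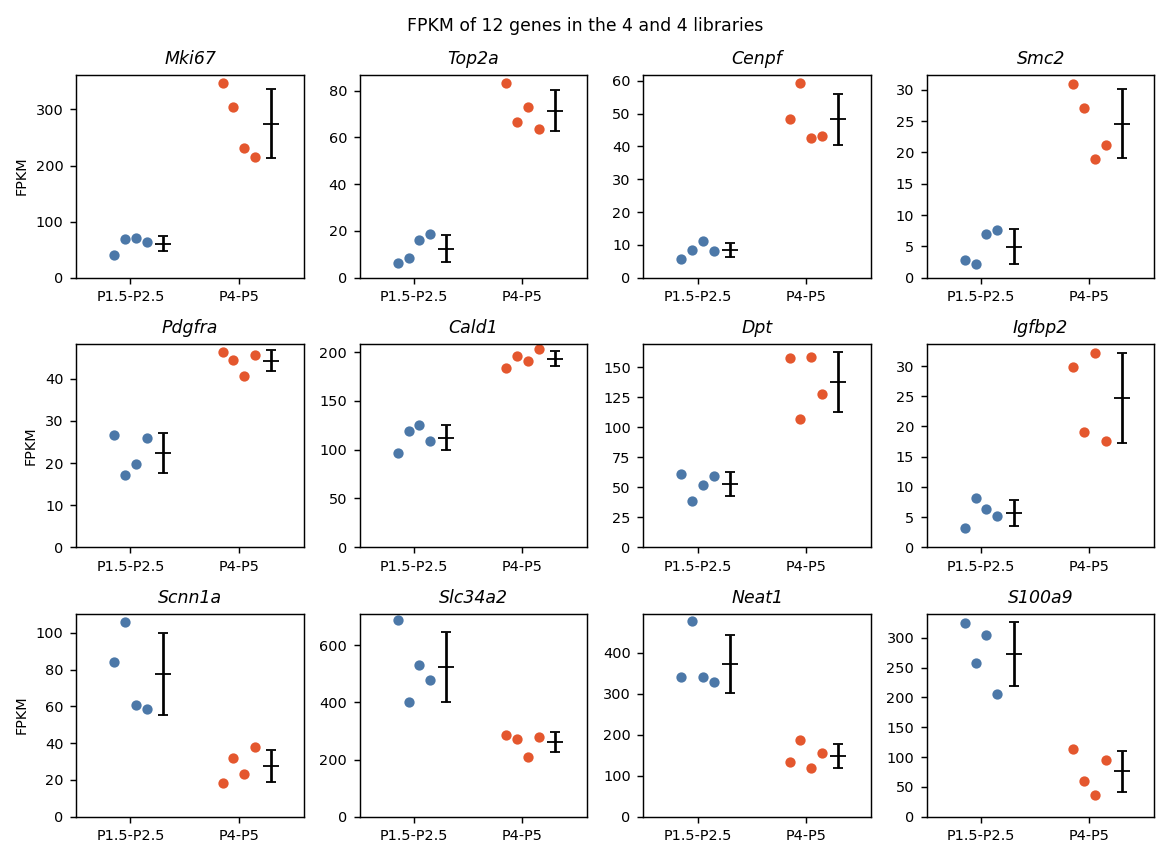
FPKM of 12 genes (panels, each with its own linear axis from 0) in the 4 libraries of P1.5-P2.5 and the 4 of P4-P5 (points), with the group mean and its SD as a line and bar. Mki67 goes from a mean of 60.9 to 274 FPKM, Pdgfra from 22.4 to 44.3 and Scnn1a from 77.3 to 27.7.

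The other signalling families had no member called with 29 libraries, and with the 8 libraries only Foxf2 was. Of 23 TGF-β genes 2 were higher and 1 lower without overlap, of 22 BMP genes 1 and 0, of 16 FGF genes 1 and 2, of 38 Wnt genes 1 and 1, of 19 Hedgehog genes 2 and 0, of 19 Notch genes 2 and 1, and of 17 VEGF and angiopoietin genes 2 and 1. Their shares without overlap ran from 2.63% (Wnt) to 11.8% (VEGF and angiopoietin) higher and from 0% (BMP and Hedgehog) to 12.5% (FGF) lower, on both sides of the 5.65% and 3.71% of all genes. Foxf2, a mesenchymal transcription factor downstream of Hedgehog, stood at 23.3, 22.9, 18.6 and 29.5 FPKM at P1.5-P2.5 and 52.4, 39.7, 43.3 and 40.8 FPKM at P4-P5, a change of 0.88 ± 0.36 (SE, adjusted p of 0.373 over 29 libraries and 0.0379 over the 8). Tgfb2, a ligand, stood at 25.8, 27.3, 28.9 and 28.9 FPKM at P1.5-P2.5 and 52.3, 40.8, 52 and 39.8 FPKM at P4-P5 and Fgfr2, the receptor of the epithelium, at 88.5, 80.2, 97.2 and 90.1 FPKM at P1.5-P2.5 and 55.1, 61.9, 47.9 and 60.3 FPKM at P4-P5. Neither overlapped, with changes of 0.71 ± 0.18 (0.0992 and 0.0536) and -0.65 ± 0.18 (0.128 and 0.0554), the adjusted p again over 29 and over 8 libraries. Fgf18, a growth factor of the septal mesenchyme, changed by 0.57 ± 0.48 (0.804 and 0.532).

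Most listed genes of the epithelium had a lower mean at P4-P5, and Scnn1a fell. Scnn1a, the alpha subunit of the sodium channel that drains the lung at birth, stood at 84.2, 106, 60.5 and 58.8 FPKM at P1.5-P2.5 and 18.1, 31.8, 23.1 and 37.8 FPKM at P4-P5. All later libraries were below the lowest earlier one. The mean went from 77.3 ± 22.2 to 27.7 ± 8.82 FPKM (SD, n = 4 and 4), and the log2 level fell, with a change of -1.46 ± 0.30 (SE, adjusted p of 0.0463 over 29 libraries and 0.0233 over the 8). Of 14 sodium channel and lung liquid genes all 14 had a lower mean log2 level, 6 without overlap beside 3.71% of all genes, and 3 were called lower in the fit of the 8 libraries, namely Scnn1a, Atp1b1 and Cldn3, a count of 0 to 3 with 1 of these left out. Atp1b1, a subunit of the sodium pump, stood at 127, 99, 117 and 79.8 FPKM at P1.5-P2.5 and 52.3, 41.9, 40.2 and 51.4 FPKM at P4-P5, a change of -1.16 ± 0.27 (SE, adjusted p of 0.0734 over 29 libraries and 0.0145 over the 8). Cldn3, a tight junction claudin, stood at 80.2, 44.1, 44.5 and 51.7 FPKM at P1.5-P2.5 and 11.8, 19.8, 19.3 and 28.6 FPKM at P4-P5, a change of -1.44 ± 0.30 (SE, adjusted p of 0.057 over 29 libraries and 0.0281 over the 8).

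All 20 alveolar type 2 cell genes had a lower mean log2 level at P4-P5, though the libraries' means over the list overlapped, at 6.9 to 7.91 at P1.5-P2.5 and 6.7 to 7.02 at P4-P5. Of the 20, 6 did so without overlap (30%, beside 3.71% of all genes), and the median change was -0.59. None was called with 29 libraries and 2 were called with the 8, a count of 0 to 6 with 1 of these left out. Abca3, which loads lipid into lamellar bodies, stood at 141, 102, 103 and 111 FPKM at P1.5-P2.5 and 46.7, 58.7, 60.3 and 81.5 FPKM at P4-P5, a change of -0.89 ± 0.20 (SE, adjusted p of 0.0734 over 29 libraries and 0.0474 over the 8). Slc34a2, a phosphate transporter, stood at 687, 400, 530 and 478 FPKM at P1.5-P2.5 and 287, 271, 208 and 278 FPKM at P4-P5, a change of -0.99 ± 0.22 (SE, adjusted p of 0.0734 over 29 libraries and 0.0496 over the 8). Sftpc, the surfactant protein with the highest FPKM of the list, stood at 20500, 7680, 15000 and 10000 FPKM at P1.5-P2.5 and 13200, 10400, 9750 and 8630 FPKM at P4-P5, with an overlap and a change of -0.26 ± 0.57 (SE, adjusted p of 0.955 over 29 libraries and 0.931 over the 8). Sftpb changed by -0.70 ± 0.22 (SE, adjusted p of 0.175 over 29 libraries and 0.0955 over the 8).

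Of 17 alveolar type 1 cell genes, 16 had a lower mean log2 level, 5 without overlap (29.4%, beside 3.71% of all genes), and the median change was -0.54. The 1 member with a higher mean was Igfbp2. Clic5, a chloride channel protein, stood at 175, 98.8, 136 and 131 FPKM at P1.5-P2.5 and 70.3, 51.5, 72 and 69 FPKM at P4-P5, a change of -1.01 ± 0.21 (SE, adjusted p of 0.0561 over 29 libraries and 0.0315 over the 8). Gprc5a, a retinoic acid induced receptor, stood at 229, 178, 174 and 159 FPKM at P1.5-P2.5 and 118, 92.9, 75.3 and 73 FPKM at P4-P5, a change of -1.05 ± 0.24 (SE, adjusted p of 0.0734 over 29 libraries and 0.0278 over the 8). Both were called lower in the fit of the 8 libraries, where 0 to 2 members were with 1 left out. Hopx stood at 134, 53.1, 67.4 and 67.7 FPKM at P1.5-P2.5 and 57.5, 41.3, 62.1 and 46.7 FPKM at P4-P5, with an overlap and a change of -0.55 ± 0.40 (SE, adjusted p of 0.74 over 29 libraries and 0.38 over the 8).

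A list of 22 genes of epithelial junctions and adhesion, drawn up after values were seen, had 21 members with a lower mean and a median change of -0.64. Of the members, 10 were lower without overlap (45.5%, beside 3.71% of all genes). In the fit of the 8 libraries 5 were called lower, and 0 to 3 with 1 of these left out. Crb3, a polarity protein of the apical membrane, stood at 12.4, 16.7, 10 and 11.6 FPKM at P1.5-P2.5 and 2.03, 5.75, 2.19 and 4.8 FPKM at P4-P5, a change of -1.61 ± 0.46 (SE, adjusted p of 0.133 over 29 libraries and 0.0367 over the 8). Cgn, cingulin of the tight junction, changed by -0.98 ± 0.30 (SE, adjusted p of 0.155 over 29 libraries and 0.0474 over the 8). The airway lists lay on the same side, with medians of -0.30 for 9 club cell genes and -0.50 for 14 ciliated cell genes, no member of either called in either fit and none without overlap. Their part in the epithelial genes was not tested.

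The other 3 genes that fell belong to none of these lists. Fam13a, a protein known from genetic studies of lung function, stood at 11.2, 11.6, 16.4 and 12 FPKM at P1.5-P2.5 and 2.76, 5.08, 7.29 and 3.15 FPKM at P4-P5 and fell, with a change of -1.37 ± 0.26 (SE, adjusted p of 0.0313 over 29 libraries and 0.0496 over the 8). Traf1, an adaptor of TNF receptors, stood at 267, 184, 280 and 174 FPKM at P1.5-P2.5 and 106, 90, 56.1 and 108 FPKM at P4-P5 and fell, with a change of -1.33 ± 0.24 (SE, adjusted p of 0.0313 over 29 libraries and 0.0268 over the 8). Neat1, the noncoding RNA that builds paraspeckles in the nucleus, stood at 340, 477, 340 and 329 FPKM at P1.5-P2.5 and 134, 186, 118 and 156 FPKM at P4-P5 and fell, with a change of -1.32 ± 0.25 (SE, adjusted p of 0.0313 over 29 libraries and 0.0145 over the 8). The groups did not overlap for any of the 3. Of the genes that rose, Aipl1 stood at 0.414, 1.31, 0 and 1.31 FPKM at P1.5-P2.5 and 9.41, 22.3, 6.69 and 7.35 FPKM at P4-P5, a change of 2.75 ± 0.54 (SE, adjusted p of 0.0357 over 29 libraries and 0.0149 over the 8), and under a pseudocount of 0.1 its adjusted p was 0.157. The seventh gene that rose, 1700092M07Rik, falls outside the rule for named genes and is given because the count is small. It was listed at 0 in all 4 earlier libraries and stood at 13.7, 15.4, 6.19 and 1.21 FPKM at P4-P5. It passed the filter on low values only through the P4-P5 libraries, so it had to differ, and it supports nothing beyond these values. Aipl1 also passed only with their help.

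Neutrophil genes were lower at P4-P5. The 18 listed genes with a value summed to 369 to 569 FPKM at P1.5-P2.5 and 77.8 to 209 FPKM at P4-P5, without overlap. All 12 tested had a lower mean log2 level, 6 did so without overlap (50%, beside 3.71% of all genes), and the median change was -1.48. None was called with 29 libraries and 4 were called lower with the 8, a count of 0 to 3 with 1 left out. Mmp9, at 5.6, 8.56, 1.22 and 3.35 FPKM and then 0.953, 0.0889, 0.933 and 0.593 FPKM, passed the filter on low values only through P1.5-P2.5. It had to differ and is 1 of the 6. Camp, Cxcr2, Csf3r and Il1b also passed only with the help of those libraries, and Csf3r and Il1b are among the 6. Csf3r is also among the 4 called lower with the 8 libraries. The counts of 12, 6 and 4 are therefore not free of the filter. S100a9, a calcium-binding protein of neutrophils chosen here for its level after values were seen, stood at 325, 257, 304 and 205 FPKM at P1.5-P2.5 and 114, 60.1, 37 and 94.7 FPKM at P4-P5, a change of -1.92 ± 0.68 (SE, adjusted p of 0.272 over 29 libraries and 0.0164 over the 8). Its partner S100a8 stood at 18.7, 15.6, 28.5 and 28 FPKM at P1.5-P2.5 and 26.6, 30.3, 4.6 and 11.3 FPKM at P4-P5, with an overlap and a change of -0.55 ± 1.13 (SE, adjusted p of 0.951 over 29 libraries and 0.666 over the 8). Ltf, lactoferrin of neutrophil granules, stood at 8.12, 12, 8.31 and 5.47 FPKM at P1.5-P2.5 and 3.13, 2.3, 2.84 and 1.77 FPKM at P4-P5, and Csf3r, the receptor of the neutrophil growth factor, at 4.82, 6.83, 6.59 and 4.22 FPKM at P1.5-P2.5 and 0.669, 1.09, 1.47 and 2.11 FPKM at P4-P5, with changes of -1.40 ± 0.42 (0.155 and 0.0474) and -1.52 ± 0.48 (0.188 and 0.0474). Both are at low FPKM.

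In the lists of other cells of the wall, 1 member was called in the fit of the 8 libraries and none with 29. General capillary genes had 1 of 16 members without overlap (6.25% higher, beside 5.65% of all genes) and a median change of 0.00, and 10 general endothelial genes had none and a median of 0.07. Of 13 aerocyte genes 2 were lower without overlap (15.4%, beside 3.71% of all genes), and Car4, the carbonic anhydrase of these capillary cells, changed by -0.30 ± 0.30 (SE, adjusted p of 0.863 over 29 libraries and 0.518 over the 8). Gpihbp1, which anchors lipoprotein lipase in capillaries, stood at 18.2, 2.01, 1.37 and 2.32 FPKM at P1.5-P2.5 and 16.6, 11, 5.89 and 5.09 FPKM at P4-P5, with P1.5 pup e above all other libraries. Macrophage and monocyte genes had 0 of 23 members without overlap and a median of -0.11, lipofibroblast genes 0 of 14 and 0.10. Of 14 pericyte genes, 1 was higher without overlap (7.14%, beside 5.65% of all genes). That gene was Cox4i2, a respiratory chain subunit of these cells, which was called higher in the fit of the 8 libraries. Cox4i2 stood at 18.4, 17.4, 13.6 and 22.9 FPKM at P1.5-P2.5 and 27.4, 37.8, 38.9 and 49.1 FPKM at P4-P5. No member of the endothelial, macrophage or lipofibroblast lists was called in either fit, which does not show that they were at equal levels.

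The neighbouring ages were set beside the step. From P0.5-P1 to P7-P10, in 8 libraries of other ages, 0.469% of the genes were called higher and 1.18% lower. These libraries enter the spread of the fit of 29 that gave the 11 genes, so the calls of both comparisons share an estimate of the spread and are not independent. Of the 11 genes called at the step, 10 changed in the same direction between those ages and 7 were called the same way, namely Igfbp2, Dpt, Niban1, Pdgfra, Scnn1a, Traf1 and Neat1. Their changes over the wider interval were 2.00, 0.94, 1.19, 0.81, -1.69, -1.05 and -0.98. Smc2, Aipl1 and Fam13a were not called, with 0.32, 0.26 and -0.52. Of the 206 genes called in the fit of the 8 libraries, 174 had the same direction and 35 were called the same way, 11 higher and 24 lower. The share of all genes with the same direction is not given here, so the 174 cannot be set beside it.

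The cell division lists had a lower median at P7-P10 than at P4-P5. From P0.5-P1 to P7-P10 the median change was 0.68 for mitosis genes, 0.07 for replication genes and -0.02 for histone genes. From P4-P5 to P7-P10, a step that shares the P4-P5 libraries, the medians were -1.29, -0.83 and -1.42, with no member called. From P0.5-P1 to P1.5-P2.5 no gene was called, with 325 at an unadjusted p under 0.05. From P4-P5 to P7-P10, 1 gene was called, Dlk1, which was lower, with 1162 at an unadjusted p under 0.05.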

How the data were processed

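RNA of laser-captured alveolar septa of the mouse lung was sequenced in 29 libraries, 8 of which are compared here. The authors deposited 1 table of FPKM values per gene and library; the submitters' processing notes name STAR 2.5.1, Cufflinks 2.2.1 and the build mm10. The annotation, the settings and the read depth are not given in the sources used here, so no interval from counts could be made. Of 24486 lines, 1226 gene IDs were repeated, and of each the line whose mean was highest entered. Symbols came from RefSeq on GRCm38.p6 for 22718 of 22779 IDs.

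The values were taken as log2(FPKM + 1), for genes at an FPKM of 1 in at least 4 of the 8 libraries. One limma 3.58.1 model (R 4.3.3, trend on) of the 29 libraries in 8 groups of ages, with 21 residual degrees of freedom, gave the differences between groups with Benjamini-Hochberg adjusted p-values over 13000 genes, called under 0.05. A second model held the 8 libraries alone. Both were also run on simulated data with noise drawn apart for each gene, and no result of that run is used here. Alternatives changed the pseudocount, filter, scaling, libraries, weights and groups. Python 3.11.15, pandas 2.3.3 and matplotlib 3.10.9 made tables and figures.

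Named were up to 15 called genes per direction with a mean FPKM of 5 and no overlap between the libraries, filled up to 10 by the smallest p, up to 4 members of each list, and genes of septation given whatever their p. The libraries, 59 gene lists and this rule were chosen with earlier results of these data known, and 3 lists were added after values were seen. Each pup is another animal, and nothing says whether pups share a litter. Some genes are not reported here.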

Additional observations from a re-analysis of the deposited data

Results flagged for a closer look

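In 12 of 176 groups of 4 values, taken over the genes named in the text and the mean levels of described lists, 1 library stood apart from the other 3 by Dixon's test. Chance gives about 1 such group in 20. At P1.5-P2.5 these were P1.5 pup e with Eln at 364 FPKM, Gpihbp1 at 18.2 FPKM and, on the low side, Mcm4 at 9.56 FPKM, P1.5 pup d with Neat1 at 477 FPKM, P2.5 pup h with Fam13a at 16.4 FPKM and Mfap5 at 7.88 FPKM, and P2.5 pup i with Mdk at 107 FPKM. At P4-P5 they were P4 pup e with Clic5 low at 51.5 FPKM and Rps27 at 2.66 FPKM, P4 pup a with Cox6b2 at 2.76 FPKM, P5 pup e with Pdgfa at 56.3 FPKM, and P5 pup e with a mean log2 level of the histone genes that was low at 4.02. None of these values was left out.

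For 1700092M07Rik the change from P4-P5 to P7-P10 differed from that of the step, with a difference of -5.95 on the log2 scale (adjusted p of 0.0271 in limma over 29 libraries), which is no independent support. The gene was listed at 0 in all 4 libraries of P1.5-P2.5 and passed the filter on low values only through the P4-P5 libraries, and both changes rest on the same 4 values of P4-P5.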

How the results depend on the processing

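The counts of called genes depended on the settings more than the changes did. With 29 libraries, 7 genes were higher and 4 lower. The counts were 12 and 7 with no filter on low values, 44 and 44 after quantile normalization, 39 and 17 with 15 ages as groups, 26 and 17 when 3 libraries rich in zeros were dropped, 225 and 147 with array quality weights, 155 and 51 with only the 8 libraries, 64 and 27 without P0.5 pup f (chosen after seeing the data), and 0 and 0 for P2.5 against P4 alone in limma, with 868 genes at an unadjusted p under 0.05. With 1 library left out they ran from 0 to 3 and from 0 to 1. The cause was not tested. The count of called genes that were also called the same way from P0.5-P1 to P7-P10 was 7. It was 4 with a pseudocount of 0.1, 26 after quantile normalization, 35 with only the 8 libraries, 14 with 15 ages, 14 without the 3 libraries rich in zeros, 85 with array quality weights, 0 for P2.5 against P4, 36 without P0.5 pup f, and 0 to 2 with 1 library left out. In the fit of the 8 libraries a pseudocount of 0.1 gave 94 higher and 30 lower. With 1 library left out that fit gave 25 to 123 higher and 5 to 49 lower, namely 25 and 7 without P4 pup a, 57 and 5 without P1.5 pup e, 40 and 6 without P5 pup b, 54 and 16 without P4 pup e and 81 and 28 without P5 pup e. It called 17 lower without P2.5 pup h and 23 without P2.5 pup i.

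Over 5140 combinations of a named gene and a setting, 4856 kept their side of the threshold, 196 passed it newly, 88 lost it and 0 called changes reversed. Among the 4856, 34 changes in 24 genes, none of them called, changed sign. The list directions held under median ratio scaling and quantile normalization except for lists with a median near 0, such as lipofibroblast genes (0.10 as deposited and -0.05 after quantile normalization) and collagens (0.07 and -0.05). Counts without overlap moved more under quantile normalization, from 5 to 9 lower for alveolar type 1 genes, 6 to 10 lower for type 2 genes, 1 to 4 lower for Wnt genes, 3 to 6 lower for lung transcription factors, and from 6 to 3 higher for elastic fibre genes and 4 to 2 for provisional matrix genes. No paired analysis was possible because pups of different ages are different animals, and of their letters the groups share only e, which no label ties to a litter or batch. The unknown depth limits genes at low FPKM most, and with 4 libraries a group a p that misses the threshold shows no equality.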

Other observations

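Some genes outside the lists described above stood apart at the step and were picked after their values were seen. Cox6b2, a testis form of a respiratory chain subunit, was at 20.7, 15.9, 15.2 and 14.9 FPKM at P1.5-P2.5 and at 2.76 FPKM in P4 pup a, and was listed at 0 in the other 3 libraries of P4-P5. Its log2 change was -3.65, with an adjusted p in limma of 0.123 over 29 libraries and 0.00805 over the 8. Cox6b2 passed the filter on low values only with the help of the P1.5-P2.5 libraries, so these values are not free of the filter. Rps27, a ribosomal protein gene, was at 9.47, 16.2, 10.6 and 6.37 FPKM and then at 0.305, 2.66, 0.189 and 0.203 FPKM, while the median change of 48 ribosomal protein genes was 0.31. The change of Rps27 was -2.78, with an adjusted p in limma of 0.304 over 29 libraries and 0.0145 over the 8. Pups of the same age also differed widely, with 37.8 and 0.419 FPKM at E18.5 and 23.9 and 0.405 FPKM at P10. Near-identical copies of ribosomal genes make the value of Rps27 uncertain. Rps27 also passed the filter only with the help of the P1.5-P2.5 libraries. Mdk, the growth factor midkine, was called higher in the fit of the 8 libraries and not with 29, with a mean 2.92 times as high. Its change was 1.57 ± 0.78 (SE, adjusted p in limma of 0.513 over 29 libraries and 0.0102 over the 8).

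Cd74, the invariant chain of MHC class II, was at 6.87, 7.96, 30.2 and 28.6 FPKM at P1.5-P2.5 and at 34, 44.7, 52.8 and 54.8 FPKM at P4-P5. Both P2.5 libraries were above both P1.5 libraries. The change was 1.55 (adjusted p of 0.272 over 29 libraries and 0.122 over the 8). Glucocorticoid response genes had a median change of -0.43 over 18 genes, 2 of them lower without overlap (11.1%, beside 3.71% of all genes). Errfi1, a brake on the EGF receptor, was at 97.4, 94.1, 111 and 90.7 FPKM and then at 43.3, 41.8, 21.9 and 58.4 FPKM. It was called lower in the fit of the 8 libraries and not with 29 (adjusted p in limma of 0.0315 and 0.12). Respiratory chain genes had a median change of 0.47 over 33 genes, 3 of them higher without overlap (9.09%, beside 5.65% of all genes) and none called in either fit. Of 55 lung transcription factor genes 7 were higher and 3 lower without overlap (12.7% and 5.45%, beside 5.65% and 3.71% of all genes). Foxf2 and Foxm1 were called higher in the fit of the 8 libraries, a count of 1 to 2 with 1 of these left out. Cholesterol synthesis genes, 23 in number, had none without overlap and none called.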
